A study of Mus musculus with 4 samples.

Results

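Transcript levels of fibroblast growth factor 4 (Fgf4), fibroblast growth factor 5 (Fgf5), the 4 FGF receptor genes Fgfr1, Fgfr2, Fgfr3 and Fgfr4, and the docking protein gene Frs2 were compared between R1 mouse embryonic stem cells labelled wild type and R1 cells labelled Usp28 KO. The 7 genes were picked by symbol for their place in one signalling pathway, out of 55401 genes in the count table. Usp28 encodes a deubiquitinase, an enzyme that takes ubiquitin off other proteins. Each group had 2 libraries of polyadenylated RNA. The cells of both groups grew on gelatin at 0.2% in N2B27 medium with LIF (10 ng/ml), the GSK3 inhibitor CHIR99021 (3 μM) and the MEK inhibitor PD0325901 (1 μM). Control and knockout cells therefore both carried a block of the kinase that acts downstream of the FGF receptors. The labels do not describe the knockout allele or the number of clones, nor do they say that a group's 2 libraries are from different cultures. The p-values therefore measure the spread among these libraries alone, and it may be technical.

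FGFs are secreted ligands that bind receptor tyrosine kinases together with heparan sulphate chains on the cell surface. The activated receptor phosphorylates FRS2, which recruits GRB2, SHP2 and SOS and switches on RAS, RAF, MEK and ERK. Mouse embryonic stem cells make FGF4 themselves, and its signal through ERK moves them out of the naive state, which is why a MEK inhibitor is part of the 2i medium. FGFR1 and FGFR2 receive FGF4 in the early embryo, where the signal also directs inner cell mass cells to primitive endoderm. Fgf5 is a classical marker of the post-implantation epiblast and is very low in naive cells.

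Fgf4 transcription in stem cells is known to depend on an enhancer inside the gene itself, where SOX2 and OCT4 (the product of Pou5f1) bind side by side. Because Fgf4 had the highest level of the 7 genes, that element and the promoter are shown. The element was located in the GENCODE M21 transcript by searching both strands for CTTTGTT, any 3 bases and ATGCTAAT. It lies in the third of 3 exons, in the 3′ untranslated region, with its first base 1453 bases past the stop codon. The window is chr7:144864388-144864417 (mm10, plus strand), and capitals mark the SOX motif and the octamer motif.
Fgf4 SOX-OCT element: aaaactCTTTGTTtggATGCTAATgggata
Of 141767 annotated transcripts, 1 held this arrangement (0.000705%), and it was this Fgf4 transcript. The letters searched for were those of the Fgf4 element itself, so a match in Fgf4 was fixed in advance. The count is a statement about letters in annotated transcripts, not about binding.

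The promoter window comes from RefSeq (GRCm38.p6), which listed 6 of the 7 genes. It covers chr7:144861136-144861435 on the plus strand, from 250 bases before the transcription start to 50 after it. Capitals mark GC boxes (GGGCGG), the CCAAT box and a TATATA run, each searched on both strands.
Fgf4 promoter: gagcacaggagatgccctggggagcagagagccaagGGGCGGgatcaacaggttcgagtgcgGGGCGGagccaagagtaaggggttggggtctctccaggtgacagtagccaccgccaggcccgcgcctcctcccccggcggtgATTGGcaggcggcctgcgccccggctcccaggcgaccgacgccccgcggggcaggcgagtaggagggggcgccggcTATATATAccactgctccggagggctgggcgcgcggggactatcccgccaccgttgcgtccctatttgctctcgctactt
The GC boxes begin 214 and 188 bases before the start, the CCAAT box lies on the minus strand with its first plus-strand base 106 bases before it, and the TATATA run (2 overlapping matches) begins 30 bases before it. Among 32851 promoter windows of the same length, GGGCGG occurred in 35.7%, CCAAT in 37.4% and TATATA in 5.67%. Neither CTTTGTT nor ATGCTAAT occurs in this window, whereas they occur in 5.85% and 0.919% of all windows.

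The libraries held 16595196 to 19533608 counts. Usp28 itself was at 189 and 197 CPM (the read count scaled to library size) in control and at 182 and 177 CPM in the libraries labelled Usp28 KO. Reads counted over the whole gene thus say nothing about whether the label is right. Libraries also differed in how their counts followed transcript GC content. Across 10701 genes, the rank correlation of a library's log2 CPM with GC content, relative to the other libraries, was -0.449 in control replicate 2 and 0.436 in Usp28 KO replicate 2 (0.058 in control replicate 1 and 0.022 in Usp28 KO replicate 1). The difference between the groups, Usp28 KO minus control, had a rank correlation of 0.328 with GC content over the same genes. The fold changes below therefore carry this trend unless they are given with the GC correction. All 10 naive stem cell markers were present, among them Pou5f1 (482 to 626 CPM) and Sox2 (502 to 571 CPM). The summed naive marker level was 5487 and 5543 CPM in control and 4914 and 5164 CPM in Usp28 KO libraries. Abundant genes weigh most in this sum, and the median log2 fold change of the 10 was -0.064. Of the 10, 2 (Tfcp2l1 and Zfp42) were lower in both Usp28 KO libraries than in both controls, against 20.4% of all tested genes. In the other direction it was 0 of the 10, against 21.4%. Primitive endoderm markers summed to 48.3 to 61.2 CPM over 10 genes, mostly Lama1, and Gata6 stood at 0.757 to 1.87 CPM. Trophoblast markers summed to 15.9 to 28.1 CPM over 7 genes, nearly all from Eomes (12.5 to 19.95 CPM) and Tfap2a, with Elf5 and Cdx2 at 0 in some libraries. Tfap2a was at 5.12 and 8.39 CPM in control and lower, at 2.84 and 3.95 CPM, in both Usp28 KO libraries (edgeR, adjusted p = 0.29). Such a pattern was seen in 20.4% of all tested genes, and Eomes overlapped between the groups. The 7 fibroblast markers summed to 0.563 to 1.07 CPM, and 3 of them were at 0 in every library. In bulk RNA, fewer cells of a type and less RNA per cell cannot be told apart.

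The 7 genes ranged from abundant transcripts to ones with a few reads a library. Levels of different genes were compared as CPM per kb of annotated exon. Fgf4 was highest, at a mean of 80.2 CPM per kb over the 4 libraries, 4.32 times the next gene, Fgfr1 (18.6 CPM per kb). Frs2 followed at 9.01, then Fgfr2 at 0.807, Fgfr4 at 0.534, Fgfr3 at 0.0747 and Fgf5 at 0.0489 CPM per kb. The ranges of neighbouring genes over the 4 libraries did not overlap, except for Fgfr3 and Fgf5. Dividing by the longest transcript instead gave the same order, and raised Fgfr2 to 1.88 CPM per kb beside 0.569 for Fgfr4. It also raised Fgfr1 to 36.4 CPM per kb beside 84.6 for Fgf4, so the size of the Fgf4 lead depends on the length used.

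**Figure D1:**
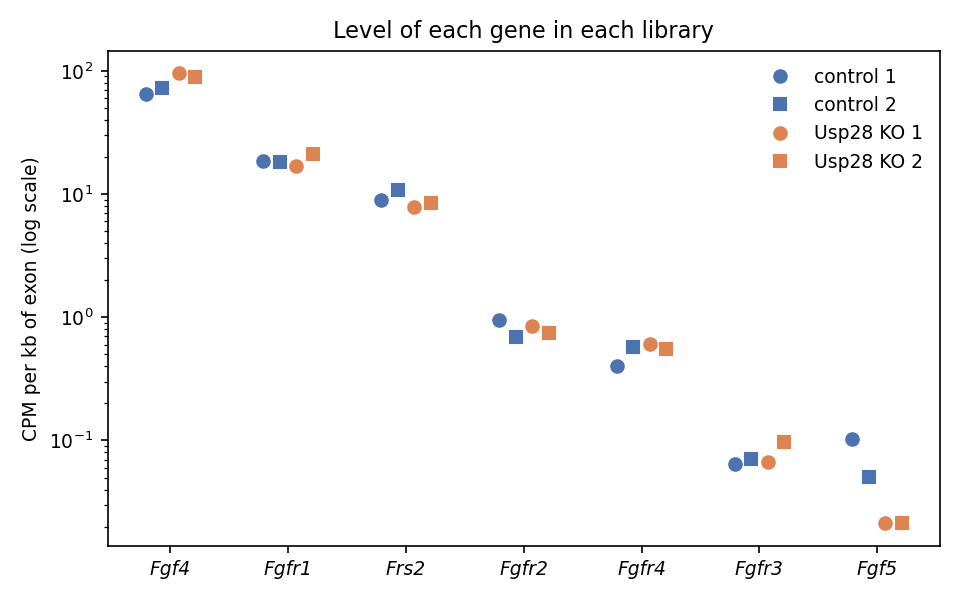
Level of each of the 7 genes in each library, in CPM per kb of exon on a log scale. Blue points are control and orange points Usp28 KO libraries, with circles for replicate 1 and squares for replicate 2. Fgf4 lies between 65.0 and 95.6 CPM per kb with both Usp28 KO points above both control points, and Fgf5 rests on 1 to 5 reads a library.

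The ligand Fgf4 was the only one of the 5 tested genes with both Usp28 KO libraries above both control libraries. Fgf4 (ENSMUSG00000050917, chromosome 7, 144847367 to 144865243, plus strand) had 4054 and 3642 counts in control and 5707 and 5305 counts in Usp28 KO libraries. After scaling this was 208 and 229.7 CPM in control, against 305 and 283 CPM in Usp28 KO. The groups did not overlap, and the gap between them exceeded the gap within either group. The means were 219 ± 15.7 CPM and 294 ± 15.8 CPM (SD, n = 2 libraries each). The fold was 1.35, with a 95% interval of 1.06 to 1.71, or a log2 fold change of 0.43 ± 0.16 (SE). This did not pass the test over all genes (edgeR, unadjusted p = 0.0193, adjusted p = 0.337), nor did it by DESeq2 (adjusted p = 0.345). With any 1 library left out the log2 fold change stayed between 0.36 and 0.50. After correction for GC content it was 0.38. Over 13 alternatives the adjusted p lay between 0.00515 and 0.69. It was under 0.05 only in the 2 fits that took the replicate number as a block, a pairing that the labels do not give.

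Fgf5 was at the detection limit in every library. Fgf5 (ENSMUSG00000029337, chromosome 5, 98254184 to 98277030, plus strand) had 5 and 2 reads in control and 1 and 1 in Usp28 KO libraries. These are 0.256, 0.126, 0.0535 and 0.0533 CPM. The ratio of Usp28 KO to control was 0.270, with a 95% counting interval of 0.0274 to 1.42 that includes no difference. On the log2 scale this was -1.89, and -1.24 without control replicate 1. It did not pass the low-count filter and was not tested. The other formative markers were Otx2, Pou3f1, Dnmt3b, Sox3, Lef1, Sall2 and Zic2. None passed the edgeR test, 0 had an unadjusted p under 0.05 and DESeq2 called 0. Of all genes, 0% passed the edgeR test, 11.2% had an unadjusted p under 0.05 and DESeq2 called 1.08%. With so few markers, counts of 0 are near these shares. Their median log2 fold change was 0.16.

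Fgfr1 supplied nearly all of the receptor transcript. Its share of the summed CPM per kb of the 4 receptors was 92.8% and 93.1% in control and 91.7% and 93.8% in Usp28 KO libraries. Fgfr2 made up 3.31% to 4.80%, Fgfr4 2.04% to 3.30% and Fgfr3 0.325% to 0.431%. The share of each receptor overlapped between the groups. Among 44 receptor tyrosine kinase genes Fgfr1 ranked 5 or 6 in each library, with Epha2, Ephb4, Ptk7 and Kit higher on average. Its range of 16.8 to 21.1 CPM per kb overlapped that of Tyro3, the next gene, at 13.7 to 19.5.

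Fgfr1 (ENSMUSG00000031565, chromosome 8, 25513654 to 25575718, plus strand) had 3549 and 2823 counts in control and 3095 and 3905 in Usp28 KO libraries. It stood at 182 and 178 CPM in control and at 166 and 208 CPM in Usp28 KO. The Usp28 KO libraries held both the lowest and the highest value, so the groups overlapped. The log2 fold change was 0.056 ± 0.17 (edgeR, adjusted p = 0.942), with a 95% interval of -0.31 to 0.42. Its direction was not fixed: it was -0.10 after GC correction, -0.11 without Usp28 KO replicate 2 and 0.21 without Usp28 KO replicate 1. Usp28 KO replicate 2, which holds the highest Fgfr1 value, also had the strongest positive GC trend, and Fgfr1 transcripts average 56.0% GC. Beyond the GC correction and the fits with 1 library left out, their part in the result was not tested.

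Fgfr2 (ENSMUSG00000030849, chromosome 7, 130162451 to 133123350, minus strand), the receptor tied to primitive endoderm and epithelia, was at 9.83 and 7.13 CPM in control and 8.72 and 7.68 CPM in Usp28 KO libraries. The Usp28 KO values lay inside the control range. The log2 fold change was -0.052 ± 0.26 (edgeR, adjusted p = 0.968; 95% interval -0.61 to 0.51), and it turned positive without control replicate 1 (0.20), without Usp28 KO replicate 2 (0.042) and with library totals (0.0063). Leaving out control replicate 2 gave -0.26, and leaving out Usp28 KO replicate 1 gave -0.15. The annotated Fgfr2 exons overlap those of Ctbp2 on the same strand, a gene with 3333 to 4224 counts, so reads in the shared part are uncertain.

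Fgfr4 and Fgfr3 were low in every library. Fgfr4 (ENSMUSG00000005320, chromosome 13, 55152640 to 55168759, plus strand) had 28 and 32 counts in control and 40 and 37 in Usp28 KO libraries. This was 1.43 and 2.02 CPM against 2.14 and 1.97 CPM, and the groups overlapped. The log2 fold change was 0.26 ± 0.39 (edgeR, adjusted p = 0.862; 95% interval -0.58 to 1.11). It was 0.043 after GC correction, 0.027 without control replicate 1 and 0.52 without control replicate 2. Fgfr3 (ENSMUSG00000054252, chromosome 5, 33721674 to 33737068, plus strand) had 9 and 8 counts in control and 9 and 13 in Usp28 KO libraries. Its ratio was 1.22 with a 95% counting interval of 0.620 to 2.45, and it was below the filter. The ratio, 0.29 on the log2 scale, was 0.53 without Usp28 KO replicate 1 and 0.0036 without Usp28 KO replicate 2. Both intervals include no difference and reach beyond a 2-fold rise, so this depth settles neither.

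Frs2, the docking protein that links the receptors to GRB2 and SHP2, was lower in both Usp28 KO libraries than in both controls. Frs2 (ENSMUSG00000020170, chromosome 10, 117069427 to 117148534, minus strand) had 1519 and 1506 counts in control and 1282 and 1384 in Usp28 KO libraries. It stood at 77.8 and 94.96 CPM in control and 68.6 and 73.8 CPM in Usp28 KO. The groups did not overlap, but the gap between them (73.8 against 77.8 CPM) was smaller than the gap between the controls. The log2 fold change was -0.28 ± 0.17 (edgeR, adjusted p = 0.590; 95% interval -0.64 to 0.088). It was -0.13 without control replicate 2 and -0.42 without control replicate 1.

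None of the 5 tested genes passed the edgeR test over all 15341 genes tested, where 0% of genes did. At an unadjusted p under 0.05, 1 of the 5 passed (Fgf4), against 11.2% of all genes (1052 higher and 666 lower). DESeq2 called 0 of the 5, against 1.08% of the genes to which it gave an adjusted p, and limma-voom called 0. Both Usp28 KO libraries lay above both controls for 1 of the 5 (Fgf4), against 21.4% of all genes, and below for 1 (Frs2), against 20.4%. The median log2 fold change of the 5 was 0.056, beside -0.0040 for all genes tested.

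**Figure D2:**
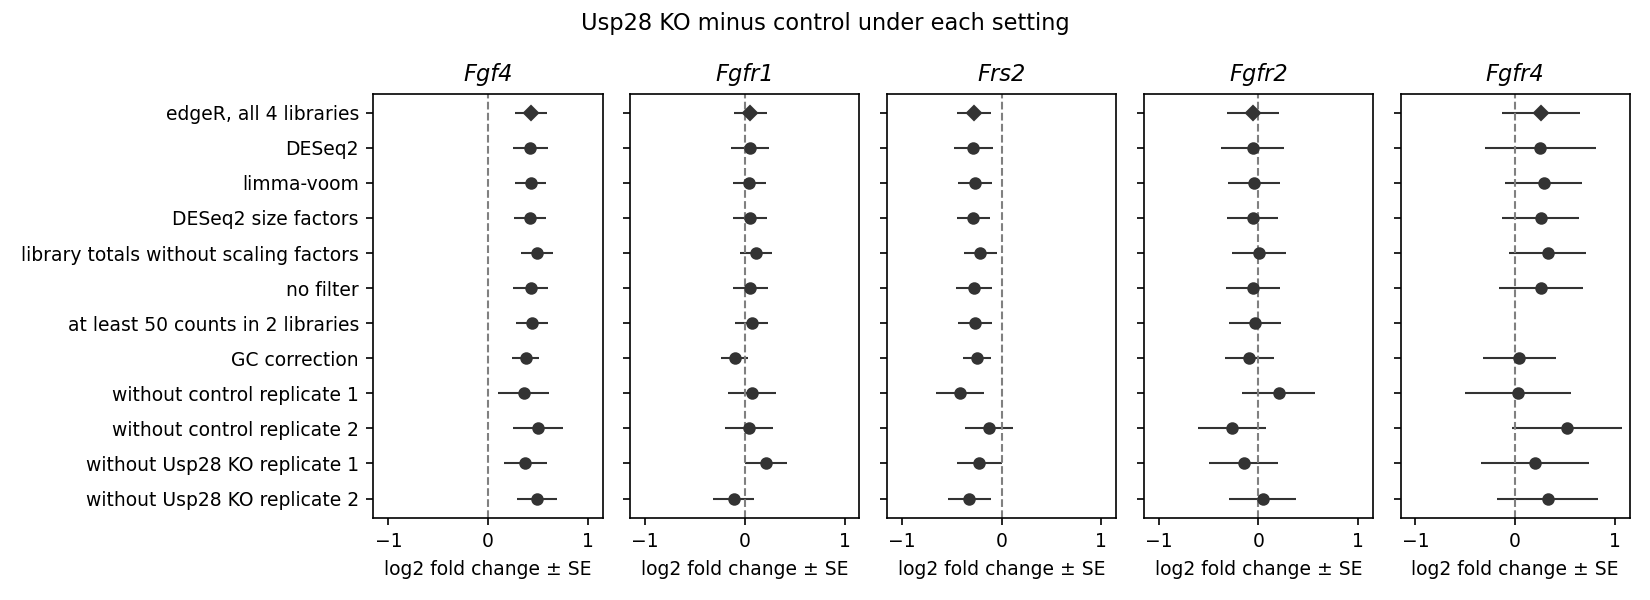
Log2 fold change (Usp28 KO minus control, bars are standard errors) of the 5 tested genes under each analysis setting without a replicate block. There are 2 libraries per group except where 1 is left out. Fgf4 stays between 0.36 and 0.50 and Frs2 between -0.42 and -0.13, while Fgfr1 and Fgfr2 lie on both sides of 0. Fgfr4 has no value at the 50-count filter.

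The proportion of ligand to main receptor was taken within each library, which removes the library scaling. Fgf4 exceeded Fgfr1 by 3.53-fold and 3.99-fold per kb in the control libraries, and by 5.70-fold and 4.2-fold in the Usp28 KO libraries. The size of these ratios depends on the exon length. Without division by length they were 1.14 and 1.29 in control and 1.84 and 1.36 in Usp28 KO libraries. Both Usp28 KO values were above both control values. Division by length scales every library alike, so it cannot change this order. Fgf4 alone had the same order, a pattern seen in 21.4% of all tested genes, so the ratio is no separate evidence. On the log2 scale the means per kb were 1.91 ± 0.12 and 2.29 ± 0.31 (SD, n = 2 each), a difference of 0.38. The exact permutation test (two-sided) gave p = 0.333, the smallest that 2 against 2 libraries allow. Without Usp28 KO replicate 1 the difference was 0.16, and without Usp28 KO replicate 2 it was 0.60.

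The other FGF ligands were far below Fgf4 with few exceptions, and Fgf4 made up 74.6% to 82.6% of the summed CPM per kb of 22 ligand genes. Fgf17 and Fgf1 came next, at 9.33 and 6.74 CPM per kb in control and 8.21 and 6.49 in Usp28 KO. Fgf2, the ligand often added to stem cell media, had 8 to 10 counts in each library. Of 20 other ligand genes, 9 passed the filter and 4 were at 0 in every library. None was called by edgeR. At an unadjusted p under 0.05, 4 were higher and 0 lower, against 1052 higher and 666 lower of all 15341 genes tested. Fgf3, among the 4 higher, passed the filter only through its Usp28 KO libraries. The filter thus favoured the higher direction in this count and in the list median below. DESeq2 called 1, Fgf15, the mouse counterpart of human FGF19, against 1.08% of all genes to which it gave an adjusted p. Fgf15 had 22 and 27 counts in control and 86 and 85 where Usp28 was labelled KO. Its log2 fold change was 1.70 ± 0.36, with an adjusted p of 0.102 by edgeR and 0.0381 by DESeq2 (3.14e-06 to 0.281 over the alternatives). Fgf22 was at 0.614 and 0.694 CPM in control and 1.44 and 1.71 CPM in Usp28 KO (log2 fold change 1.26 ± 0.47; edgeR, adjusted p = 0.334). The list median was 0.38 over its 9 tested genes, but 0.015 without control replicate 1, 0.013 without Usp28 KO replicate 2 and 0.58 without Usp28 KO replicate 1.

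Fgf3, Fgf4 and Fgf15 are neighbours on chromosome 7, and all 3 were higher in both Usp28 KO libraries than in both controls, a pattern that 21.4% of all tested genes show. This was looked at after the values were known. Distances were taken between annotated gene starts, except that the Fgf4 start is the RefSeq start of the promoter shown above, which lies inside the annotated Fgf4 gene. Within 200 kb of it the table lists 14 genes, of which 5 were tested. Fgf3 starts 23.3 kb before that start and had 11 and 8 counts in control and 21 and 27 in Usp28 KO (1.25 ± 0.50 on the log2 scale, edgeR, adjusted p = 0.374). With 8 counts in control replicate 2, under the minimum of 10, Fgf3 passed the filter through its Usp28 KO libraries. The filter thus favoured its place among the tested genes, and DESeq2 gave it no adjusted p. Fgf15 starts 35.15 kb after the Fgf4 start. Beyond it, LTO1 (0.060 ± 0.27) and the cyclin gene Ccnd1 (-0.15 ± 0.18) overlapped between the groups. Fgf15 exons overlap 2 noncoding genes on the opposite strand, Gm26793 with 2, 2, 8 and 7 counts and Gm39119 with 1 read in all. The strand setting of the counting is not given in the sources used here, so those reads cannot be assigned with certainty. No gene of the table overlaps Fgf3 or Fgf4 exons.

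**Figure D3:**
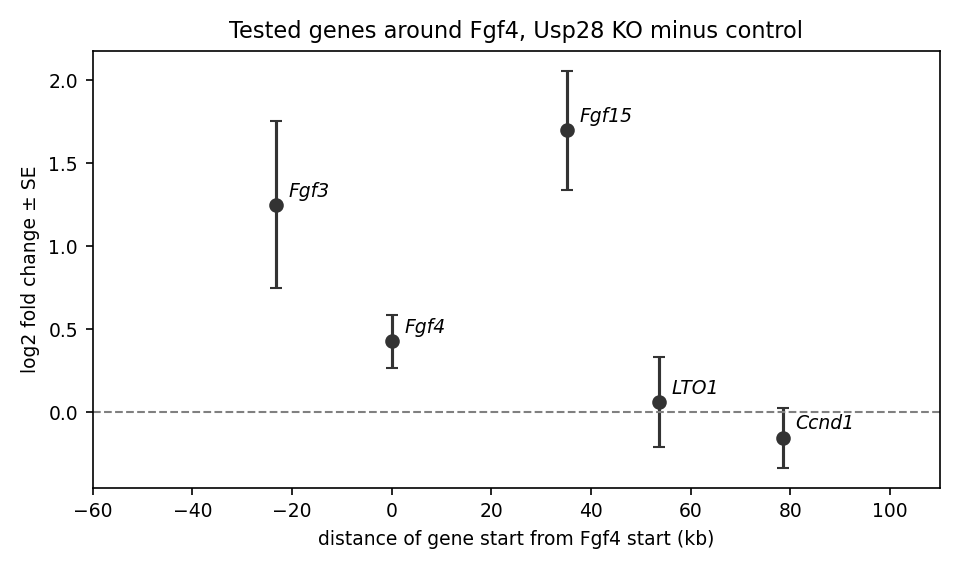
Log2 fold change (Usp28 KO minus control, bars are standard errors, 2 libraries per group) of the 5 tested genes around Fgf4 against the distance of their start from the RefSeq Fgf4 start in kb. Fgf3, Fgf4 and Fgf15 lie at 1.25, 0.43 and 1.70, and LTO1 and Ccnd1 at 0.060 and -0.15.

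Co-receptors and FGF-binding proteins went in both directions and none was called by edgeR. Of 8 genes, 5 were tested, and 1 was higher and 2 lower at an unadjusted p under 0.05, which 11.2% of all genes passed. Fgfrl1, a receptor-like protein without a kinase domain, was at 13.5 and 9.52 CPM in control and 17.5 and 15.9 CPM in Usp28 KO (log2 fold change 0.53 ± 0.24). The Fgfrl1 value was 0.28 with the GC correction, 0.30 without control replicate 2 and 0.81 without control replicate 1. Flrt3, a membrane protein that binds FGF receptors, was at 11.3 and 12.4 CPM in control and 8.45 and 8.11 CPM in Usp28 KO (-0.52 ± 0.23). Fgfbp1, a carrier that releases FGFs from the matrix, was at 2.46 and 1.58 CPM in control and 0.856 and 0.80 CPM in Usp28 KO (-1.29 ± 0.45). The list median was 0.53, and -0.25 without Usp28 KO replicate 1, 0.30 without control replicate 2, 0.28 with the GC correction and 0.021 with at least 50 counts in 2 libraries. The klotho co-receptor genes Kl and Klb had 0 to 5 counts per library.

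Among 28 genes for heparan sulphate proteoglycans and their enzymes, 23 were tested and none was called by edgeR. At an unadjusted p under 0.05, 3 were higher and 2 lower, and 11.2% of all genes passed. Sulf1, an extracellular sulphatase that trims heparan sulphate, fell by DESeq2. It stood at 83.6 and 86.3 CPM in control and 48.04 and 54.6 CPM in Usp28 KO. The difference was -0.73 ± 0.16 on the log2 scale, with an adjusted p of 0.12 by edgeR and 0.0233 by DESeq2 (1.22e-05 to 0.275 over the alternatives). Its relative Sulf2 was more abundant, and overlapped between the groups. Sdc1, which encodes the proteoglycan syndecan-1, was at 37.2 and 31.5 CPM in control and 52.8 and 45.9 CPM in Usp28 KO (0.52 ± 0.18, and 0.32 with the GC correction). Gpc4, which encodes the glypican GPC4, was at 61.8 and 75.98 CPM in control and 35.7 and 57.3 CPM in Usp28 KO (-0.57 ± 0.22). The Gpc4 value was -0.26 without Usp28 KO replicate 1 and -0.94 without Usp28 KO replicate 2, where it passed the test (edgeR, adjusted p = 0.0394). The list median was 0.12, but 0.0063 to 0.044 with any 1 library left out, 0.0093 with at least 50 counts in 2 libraries and -0.0095 with the GC correction.

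Downstream of Frs2, no adaptor or cascade gene was called. All 13 docking and adaptor genes were tested, with 0 called by edgeR, 0 past an unadjusted p under 0.05 and 0 called by DESeq2. The shares over all genes were 0%, 11.2% and 1.08%, so with 13 genes these counts are near them. Grb2, the adaptor that binds phosphorylated FRS2, was at 89.7 and 88.2 CPM in control and 87.1 and 87.1 CPM in Usp28 KO libraries. Frs3, the close relative of Frs2, was at 17.5 and 21.2 CPM in control and 21.1 and 30.6 CPM in Usp28 KO (log2 fold change 0.42 ± 0.23; edgeR, adjusted p = 0.531). The Frs3 value was 0.14 without Usp28 KO replicate 2, 0.66 without Usp28 KO replicate 1 and 0.18 with the GC correction. The median of the adaptor list was 0.14, -0.017 to 0.11 with any 1 library left out (lowest without control replicate 1) and 0.057 with the GC correction. Of 16 genes from RAS to ERK, all were tested and 0 were called by edgeR or DESeq2, against 0% and 1.08% of all genes. Only Rasa1, a GTPase-activating protein that turns RAS off, had an unadjusted p under 0.05, against 11.2% of all genes. It was at 74.4 and 85.1 CPM in control and 64.6 and 56.8 CPM in Usp28 KO (-0.39 ± 0.17, edgeR, adjusted p = 0.406). With the GC correction the Rasa1 value was -0.032, and its transcripts average 35.8% GC. The cascade median was -0.017, and -0.091 to 0.040 with any 1 library left out (highest without control replicate 2). Mapk3, which encodes ERK1, spanned 68.6 to 104 CPM over the 4 libraries, and the groups overlapped. Map2k1 and Map2k2, which encode the inhibited MEK kinases, were at 116 to 147 and 82.4 to 100.4 CPM.

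Feedback and target genes of ERK signalling included the list genes with the smallest p. Of 18 such genes, 17 were tested and 0 called by edgeR. At an unadjusted p under 0.05, 2 were higher and 6 lower, against 1052 higher and 666 lower of all 15341 genes tested. DESeq2 called 2 higher and 4 lower, against 1.08% of all genes to which it gave an adjusted p. The feedback inhibitor gene Spry4 was at 41.8 and 38.4 CPM in control and 9.95 and 18.1 CPM in Usp28 KO libraries, and the ETS factor genes Etv4 and Etv1 had log2 fold changes of -1.57 and -1.30. All 3 had an edgeR adjusted p of 0.0611. By DESeq2 the adjusted p was 9.78e-05 for Spry4, 0.00161 for Etv4 and 0.000694 for Etv1. The list was drawn up with these differences already known and is no independent evidence of their direction, and its median was -0.21 (-0.14 without control replicate 1, -0.12 without Usp28 KO replicate 2 and -0.11 with the GC correction). Among 40 other receptor tyrosine kinase genes, 32 were tested and 0 called by edgeR or DESeq2, against 0% and 1.08% of all genes. At an unadjusted p under 0.05, 4 were higher and 1 lower, and 11.2% of all genes passed. Ltk, Flt1 and Tek had the smallest p, with log2 fold changes of 1.33, 1.06 and -0.77. Ltk was at 0.67 without Usp28 KO replicate 1 and Flt1 at 0.69 without control replicate 1. The list median was 0.093, and -0.018 without control replicate 2, 0.19 without Usp28 KO replicate 1, 0.039 without Usp28 KO replicate 2 and 0.033 with the GC correction.

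**Figure D4:**
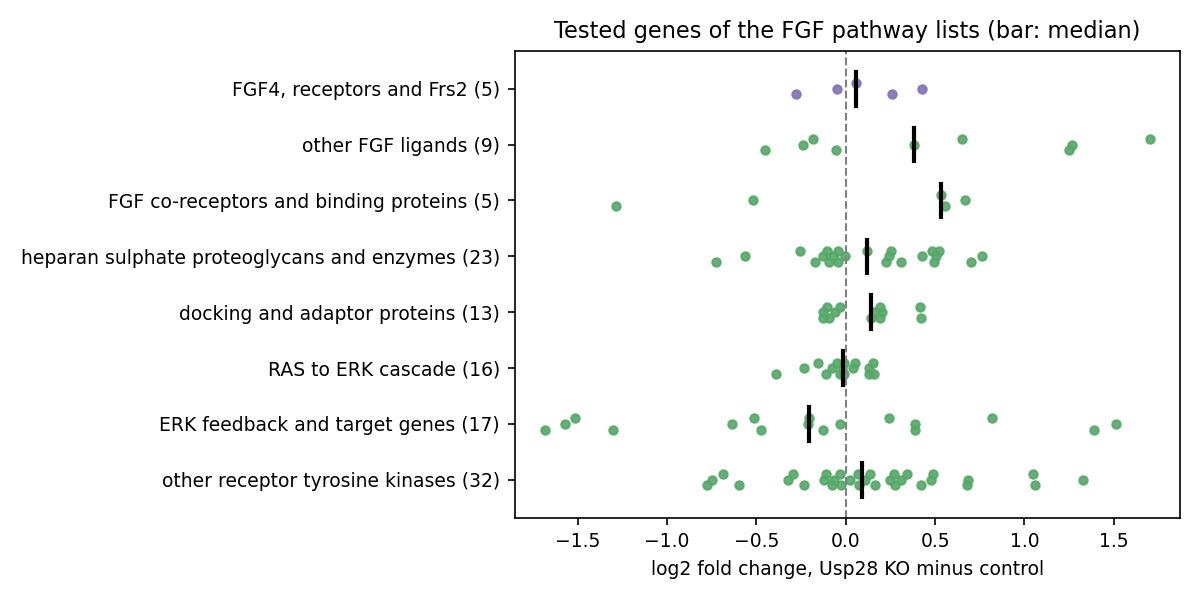
Log2 fold change (Usp28 KO minus control) of every tested gene in each FGF pathway list, with the number tested in brackets. Each point is a gene and each black bar a list median. The 5 tested members lie between -0.28 and 0.43, cascade genes between -0.39 and 0.16, and feedback and target genes between -1.68 and 1.51.

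Some genes followed the members closely over the 4 libraries. Likeness was the root mean square difference in log2 CPM, each gene centred on its own mean, among 10069 genes averaging at least 5 CPM. With 4 libraries, small differences occur among so many genes without any shared property. Nearest to Fgf4 were Mgarp, at a difference of 0.011, and Plcxd2, at 0.020. Mgarp stood at 16.1 and 17.5 CPM in control and 23.3 and 21.7 CPM in Usp28 KO libraries. Nearest to Fgfr1 were Phf21b (0.0078) and Scmh1 (0.011), to Fgfr2 Cbr3 (0.0068) and Ctsl (0.0078), to Fgfr4 Zfp398 (0.011) and Pdp1 (0.017), and to Frs2 Upf3b and Zfp748 (0.010 each).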

How the data were processed

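RNA from 4 libraries of R1 cells, 2 per group, was analysed. Per the labels' protocols, libraries were made by oligo(dT) selection from 1 μg of total RNA. Raw read counts by gene, as the authors deposited them, were the starting point. The submitters' processing notes name HISAT2, featureCounts, DESeq2 and mm10 but no versions. How featureCounts treated strand and multiply mapped reads is not given in the labels. Symbols came from GENCODE M21, which matched 55141 of 55401 identifiers.

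In R 4.3.3, edgeR 4.0.16 kept 15341 genes (filterByExpr, minimum count 10, minimum total 15), scaled libraries by TMM and compared the groups with a robust quasi-likelihood fit, Benjamini-Hochberg adjusted over all genes at 0.05. CPM was computed on the TMM-scaled library size. Intervals for Fgf5 and Fgfr3 are exact binomial and cover counting error only. Alternatives used DESeq2 1.42.0, limma 3.58.1 (voom), other scalings and filters, a GC correction (spline with 5 degrees of freedom, GC known for 15328 genes), a replicate block, and each library left out. The edgeR fit was also run on simulated counts, drawn without a GC trend and without deviations shared by replicate number. That run cannot show how the fit behaves where these are present, as they are here.

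The members and lists were chosen with earlier results of these data known. Named genes are the members, up to 3 genes of each list with the smallest p, fixed genes, and the 2 genes most like each tested member. Any other gene named, such as Sulf2, Fgf1, Fgf17, Ccnd1 or LTO1, was chosen after its values were seen.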

Additional observations from a re-analysis of the deposited data

How the results depend on the processing

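The log2 fold changes of Fgf4, Frs2 and Fgfr4 kept their direction under every alternative that gave them a value. Fgfr4 had no value with at least 50 counts in 2 libraries. Fgfr1 turned to -0.10 with the GC correction and to -0.11 with the GC correction and replicate block, and ranged from -0.11 to 0.21 with 1 library left out. Fgfr2 turned to 0.0063 with library totals, and ranged from -0.26 to 0.20 with 1 library left out.

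Libraries with the same replicate number deviated together from their group means (r = 0.518 over 10704 genes). The labels do not say that a number marks a shared culture, batch or day, so this is a hint from the data. With the replicate block, Fgf4 differed by 0.43 on the log2 scale (adjusted p = 0.00798 by edgeR), and with the GC correction and block by 0.38 (adjusted p = 0.00515 by edgeR). Both fits called 1 of the 5 tested members, against 11% of all genes with the block and 16.6% with the GC correction and block. Over all 13 alternatives the adjusted p of Fgf4 ranged from 0.00515 to 0.69.

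No gene was called in either direction with limma-voom, DESeq2 size factors, the 50-count filter or the GC correction, as in the edgeR fit of the report. DESeq2 called 89 higher and 51 lower, library totals 24 and 5, no filter 204 and 118, the block 965 and 716, and GC correction with block 967 and 1579. With 1 library left out, 59 to 133 were called higher and 35 to 98 lower, where the lone library of a group is assumed to vary like the others. The cause was not tested. With 2 libraries per group, the interval of Fgf4 spans 1.06-fold to 1.71-fold, and Fgf5 and Fgfr3 are limited by their counts.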
